A study of Mus musculus with 61 samples.

Results

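Secretagogin (Scgn) and 7 other genes of EF-hand calcium-binding proteins were followed through mouse pancreatic ductal organoid cells in which the transcription factors Ngn3, Pdx1 and MafA had been switched on in different combinations. The 8 genes were Scgn, Efcab1, Calb1, Calb2, Necab1, Necab2, Hpca and Ncald, out of 46078 genes in the count table. They are EF-hand genes chosen by the measured levels of Scgn and Efcab1, which had been seen to be high in cells with Ngn3 in these same data, so the comparison of cells with and without Ngn3 chose them and is given for them as a description only. Of the 8 members, 7 passed the filter on low counts and Calb2 did not. The filter left 24004 genes.

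The organoids were three-dimensional cultures of pancreatic duct cells from C57BL/6 mice, infected with separate lentiviral vectors for GFP-Ngn3, LSSOrange-Pdx1 and tdTomato-MafA, together with a doxycycline-inducible transactivator, and kept in doxycycline for 8 days. Pools of 50 cells were sorted by colour and sequenced. There were 6 colour combinations, 3 without Ngn3 (Pdx1 alone, MafA alone, or both) and 3 with Ngn3 beside the same partners, of which the last is called 3-factor cells. Each was sorted from WT cultures, infected with wild-type Ngn3, and from 6SA cultures, infected with a phospho-mutant Ngn3 in which 6 serines were changed to alanine. This gave 12 conditions of 2 or 3 replicates and 32 samples, 17 with Ngn3 and 15 without. Cells without the Ngn3 reporter came from the same infected and doxycycline-treated cultures and all carried Pdx1, MafA or both, so they are not untreated duct cells, and uninfected cells were not analysed here. Replicates 1 and 2 were organoids at passage 2 and replicate 3 was at passage 5, so that passage and biological replicate cannot be told apart.

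An EF-hand is a helix, a short loop that holds a calcium ion, and a second helix. Proteins built from such hands either buffer calcium or change shape on binding it and act on a partner. Scgn encodes secretagogin, a calcium sensor of pancreatic islet endocrine cells and of neuroendocrine cells, linked to the release of secretory granules. Calbindin-D28k (Calb1) and calretinin (Calb2) are its closest relatives in the list and are known as calcium buffers of neurons. Hippocalcin (Hpca) and neurocalcin delta (Ncald) are myristoylated neuronal calcium sensors, Necab1 and Necab2 encode neuronal EF-hand proteins, and Efcab1 encodes an EF-hand protein of ciliary axonemes also called calaxin. Ngn3, encoded by Neurog3, is the factor that starts the endocrine programme in the pancreas, while Pdx1 and MafA are factors of beta cells.

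The loops that give these genes their family name are encoded by stretches of 12 codons. The following 7 are shown because Scgn and Efcab1 gave the clearest levels, and Hpca and Ncald show the same loop in a close pair. They were read from GENCODE coding sequences on GRCm38, 5′ to 3′ on the coding strand, with the first and last codon of the loop, whose products help to hold the calcium ion, in capitals.
Scgn, codons 118 to 129, chr13:23974814-23974849, minus strand: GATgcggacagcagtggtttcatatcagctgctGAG
Scgn, codons 162 to 173, chr13:23966848-23966883, minus strand: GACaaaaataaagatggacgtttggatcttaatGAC
Efcab1, codons 78 to 89, chr16:14917657-14917692, plus strand: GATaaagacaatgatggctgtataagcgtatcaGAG
Efcab1, codons 114 to 125, chr16:14920312-14920347, plus strand: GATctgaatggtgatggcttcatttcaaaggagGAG
Efcab1, codons 159 to 170, chr16:14920781-14920816, plus strand: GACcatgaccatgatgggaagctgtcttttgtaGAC
Hpca, codons 73 to 84, chr4:129118490-129118525, minus strand: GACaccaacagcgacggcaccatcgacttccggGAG
Ncald, codons 73 to 84, chr15:37397183-37397218, minus strand: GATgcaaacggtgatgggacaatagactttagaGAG

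By a canonical loop pattern, the coding sequence of Scgn (276 codons) held 4 loops and that of Efcab1 (212 codons) held 3. The calbindins held 4 (Calb1, 261 codons) and 5 (Calb2, 271 codons). Hpca and Ncald, both of 193 codons, held 3 each at the same codon numbers for the loop shown, whereas Necab1 (352 codons) held 1 and Necab2 (389 codons) held 2.

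Ngn3 is a basic helix-loop-helix factor, a class that binds E-boxes, so the 250 bases upstream of the members' RefSeq start sites (GRCm38.p6) were searched for the letters CANNTG, which read the same on both strands. Of the 8 members, 3 were matched, namely Scgn, Necab2 and Hpca. The window before Scgn, chr13:23991215-23991464 on the minus strand, is shown because Scgn had the highest level, and it held 0 such letters.
Scgn upstream: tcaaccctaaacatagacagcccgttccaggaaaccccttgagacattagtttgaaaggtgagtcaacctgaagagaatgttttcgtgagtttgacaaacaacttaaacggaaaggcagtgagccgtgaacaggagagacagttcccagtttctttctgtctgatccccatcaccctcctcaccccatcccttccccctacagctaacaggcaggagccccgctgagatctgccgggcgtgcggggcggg
The window before the first start site of Hpca, chr4:129121748-129121997 on the minus strand, held 2, in capitals.
Hpca upstream: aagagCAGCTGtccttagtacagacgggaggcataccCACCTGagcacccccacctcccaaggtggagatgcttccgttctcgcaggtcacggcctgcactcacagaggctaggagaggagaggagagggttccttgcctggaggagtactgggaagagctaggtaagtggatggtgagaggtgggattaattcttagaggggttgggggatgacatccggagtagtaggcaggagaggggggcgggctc
The window before Necab2 held 2 (CAGGTG and CACTTG), and the other Hpca start sites held 0 and 4. Of 32851 promoter windows of 250 bases, 66.2% held CANNTG, so that a match is common and its absence from a window says only that these letters are not in it.

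Of 61 libraries, 58 were kept and 3 were left out for under 1000000 counts on genes. Technical repeats were summed, which left 2579583 to 19461008 counts per sample, so that 3 counts stood for 0.136 to 1.01 CPM (counts per 1000000 counts). Neurog3 lay at 7.87 to 329 CPM in the 17 samples labelled with Ngn3 and at 0 to 0.787 CPM in the 15 without. Mafa was low throughout, with 0 to 12.7 CPM in the samples labelled with MafA, of which 1 was at 0, and at most 0.116 CPM in those without. The Pdx1 ranges overlapped, at 9.84 to 191 CPM in samples labelled with Pdx1 and 3.21 to 30.6 CPM in those without. The vectors carried mouse coding sequences of these factors. Counts of Neurog3, Pdx1 and Mafa, here and below, therefore do not separate the vector from the cell's own gene. The summed level of 10 endocrine genes (Chga, Chgb, Neurod1 and others) was 544 to 13820 CPM with Ngn3 and 1.32 to 10.5 CPM without, and that of 8 duct genes was 1392 to 16514 CPM with Ngn3 and 10245 to 56793 CPM without. Acinar genes summed to at most 17.1 CPM, with Ptf1a at 0 in every sample, endothelial genes to at most 27.0 CPM, and immune genes to at most 44.2 CPM, with Adgre1 at 0. Mesenchymal genes reached 298 CPM in 1 sample, WT Ngn3 with MafA replicate 1. Each value below is the mean of a sorted pool, in which fewer cells of a type and less RNA per cell cannot be told apart.

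Scgn (chr13:23953456-23991214, minus strand, 13 exons in the union of its transcripts) was the most abundant of the 8 genes in cells with Ngn3 and close to absent in cells without it. In WT cells with all 3 factors it measured 584, 934 and 155 CPM in replicates 1, 2 and 3. In the 6SA cells with all 3 factors it measured 662 and 274 CPM, replicate 3 having been left out for its depth. The 3-factor samples thus held the 2 highest values of Scgn, and the passage 5 sample was the lowest of the 5.

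With Ngn3 and Pdx1, Scgn measured 469, 223 and 35.9 CPM in WT cells and 611, 262 and 155 CPM in 6SA cells. With Ngn3 and MafA it measured 145, 191 and 53.4 CPM in WT cells and 287, 184 and 29.5 CPM in 6SA cells. All 17 samples lay between 29.5 and 934 CPM with a median of 223 CPM, and the lowest, 6SA Ngn3 with MafA replicate 3, still held 193 counts. In the 15 samples without Ngn3, Scgn lay between 0 and 2.29 CPM with a median of 0.173 CPM, and 11 of the 15 held a count. The highest of these were 6SA cells with Pdx1 and MafA, at 1.88, 0.144 and 2.29 CPM. No sample without Ngn3 came near one with it.

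Efcab1 (chr16:14906606-14981371, plus strand) followed the same split at a lower level. In 3-factor cells it measured 64.2, 111 and 30.6 CPM in WT cultures and 89.5 and 65.1 CPM in 6SA cultures. With Ngn3 and Pdx1 it measured 54.7, 26.3 and 7.38 CPM in WT cells and 92.6, 39.4 and 19.9 CPM in 6SA cells. With Ngn3 and MafA the values were 25.9, 12.4 and 9.38 CPM in WT cells and 42.1, 23.2 and 5.50 CPM in 6SA cells. Without Ngn3, Efcab1 was at 0 in all but 4 of 15 samples, and no sample held more than 2 counts (0.324 CPM). The 17 samples with Ngn3 therefore all lay above the 15 without.

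**Figure D1:**
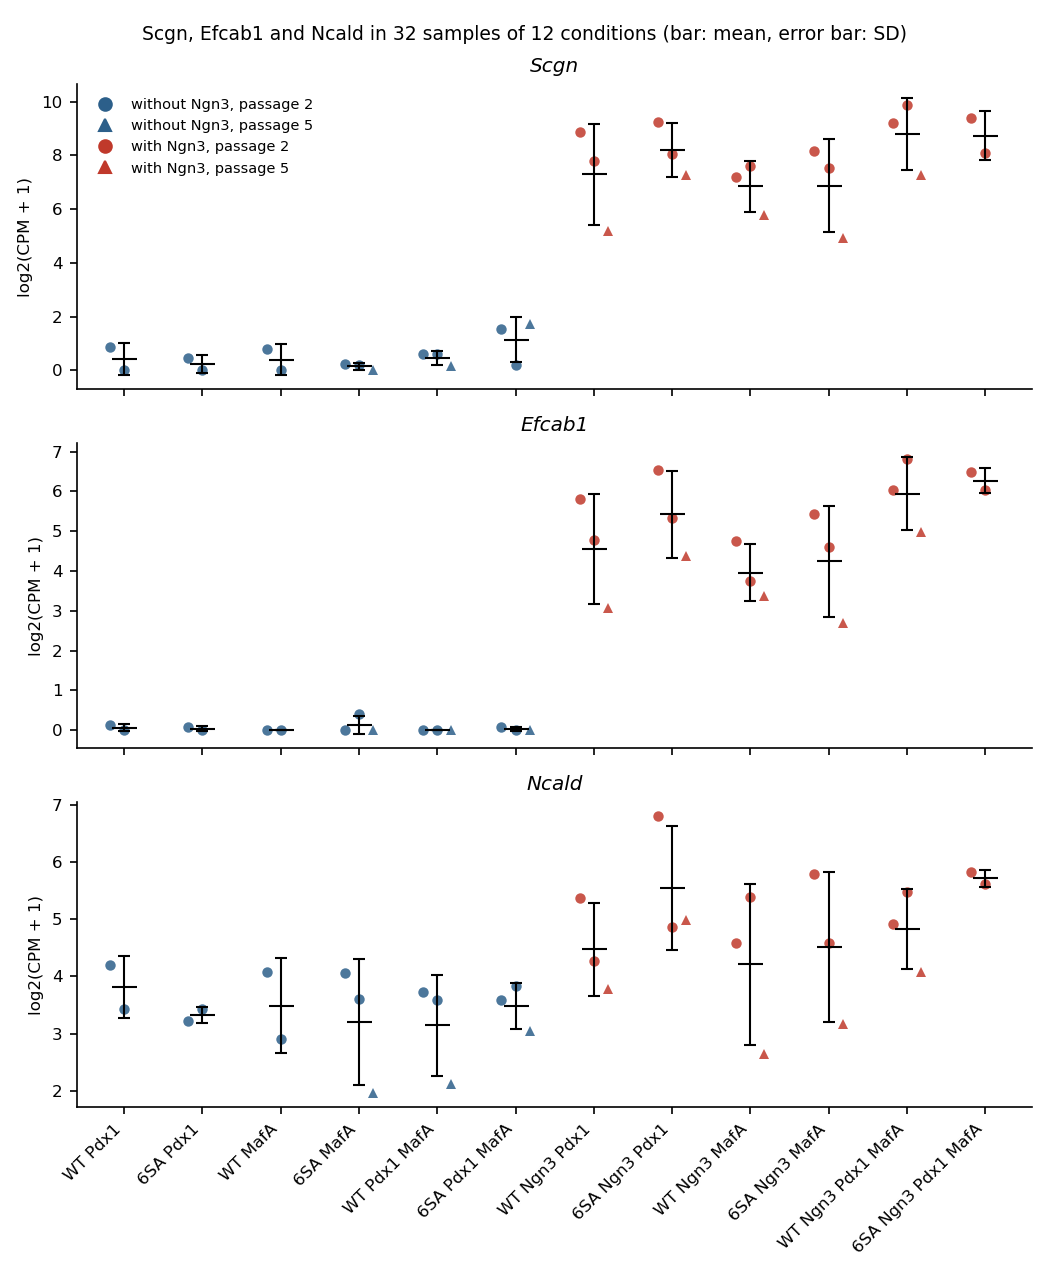
Scgn, Efcab1 and Ncald in the 12 conditions (x axis), as log2(CPM + 1) on the y axis, with 1 point per sample (circles passage 2, triangles passage 5), bars at the mean and error bars of 1 SD over 2 or 3 replicates. Scgn and Efcab1 separate the 17 samples with Ngn3 from the 15 without, whereas the Ncald ranges overlap.

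Summed over samples, Scgn held 62326 counts with Ngn3 and 87 without, and the level per depth was 578 times higher with Ngn3 (95% exact binomial interval 469 to 722, counting error only). For Efcab1 the counts were 8698 and 5 and the ratio was 1404 (601 to 4325). The fitted log2 fold change of Ngn3, averaged over the 3 partner settings and both cultures, was 9.33 (SE 0.60) for Scgn and 9.996 (SE 0.62) for Efcab1. These values describe the contrast by which the genes were chosen, and no test is given. Across the 24004 genes, 0.542% had every sample with Ngn3 above every sample without, which held for Scgn and Efcab1 among the 7 members that passed the filter and not for the other 5.

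The gap was also seen beside each partner, though the partners were not tested against each other. Scgn was 9.60 (SE 1.08) on the log2 scale higher with Ngn3 beside Pdx1, 9.04 (SE 1.05) beside MafA and 9.35 (SE 0.87) beside both. By pooled counts, Efcab1 was 1172 times higher beside Pdx1 (324 to 9680), 480 times beside MafA (133 to 3970) and 4219 times beside both (757 to 166669), where the cells without Ngn3 held 2, 2 and 1 counts in all. The wide intervals for Efcab1 come from those few counts. Within passage 2 alone, Scgn measured 145 to 934 CPM in 12 samples with Ngn3 and 0 to 1.88 CPM in 12 without. Within passage 5 it measured 29.5 to 155 CPM in 5 samples with Ngn3 and 0 to 2.29 CPM in 3 without. Efcab1 likewise did not overlap within either passage, at 12.4 to 111 CPM against at most 0.324 CPM at passage 2 and 5.50 to 30.6 CPM against 0 at passage 5.

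Divided by the length of the exon union, which allows levels of different genes to be compared, the median over samples with Ngn3 was 138 CPM per kb for Scgn, 6.90 for Efcab1, 3.42 for Ncald and 0.305 for Hpca. The medians of Necab2 (0.0722), Necab1 (0.0173) and Calb1 (0) were lower still. Scgn exceeded Efcab1 per kb in each of the 17 samples, by 11.5 to 42.3 times with a median of 18.7 times.

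Ordered by mean, the Scgn levels of the 6 Ngn3 conditions ran from WT 3-factor cells (558 ± 390 CPM, SD, n = 3) through 6SA 3-factor cells (468 ± 274, n = 2), 6SA Ngn3 with Pdx1 (342 ± 239, n = 3), WT Ngn3 with Pdx1 (243 ± 217, n = 3) and 6SA Ngn3 with MafA (167 ± 130, n = 3) to WT Ngn3 with MafA (130 ± 70.2, n = 3). Each neighbour in this order overlapped the next, and the only break without overlap fell between the last of them and the highest condition without Ngn3, 6SA Pdx1 with MafA (1.44 ± 1.14 CPM, n = 3). Efcab1 had the same order except that the 3-factor cells of 6SA cultures (77.3 ± 17.2 CPM, n = 2) stood before those of WT cultures (68.7 ± 40.6 CPM, n = 3). Its only break also fell below WT Ngn3 with MafA (15.9 ± 8.80 CPM, n = 3).

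The genes whose levels over the 12 condition means were most like those of Scgn, by Pearson's r of mean log2(CPM + 1) among 14147 genes, were Resp18 (0.997), St18 (0.997), Neurod1 (0.996), Rfx6 (0.995) and Ptprn2 (0.995). Efcab1 was 10th in that order at 0.994. The genes most like Efcab1 were Runx1t1 (0.999), Rimbp2 (0.998), Ptprn2 (0.998), Baiap3 (0.997) and St18 (0.997), with Scgn 17th. The 12 points fall into 6 conditions with Ngn3 and 6 without and share their cultures, so these values are a description only.

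Ncald, the neuronal calcium sensor neurocalcin delta (chr15:37366175-37792570, minus strand), was present in every sample. With Ngn3 and Pdx1 it measured 40.3, 18.2 and 12.8 CPM in WT cells and 110.5, 28.0 and 30.5 CPM in 6SA cells. With Ngn3 and MafA it measured 23.1, 40.8 and 5.29 CPM in WT cells and 54.2, 23.1 and 7.94 CPM in 6SA cells. The 3-factor cells held 29.3, 43.4 and 15.95 CPM in WT cultures and 55.3 and 47.7 CPM in 6SA cultures. Of the 12 conditions, 6SA Ngn3 with Pdx1 had the widest spread (56.3 ± 46.9 CPM, n = 3), because of replicate 1.

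Without Ngn3, Ncald lay between 2.90 and 17.4 CPM with a median of 10.98 CPM, against 5.29 to 110.5 CPM with a median of 29.3 CPM in samples with Ngn3. The sets overlapped, and the pooled level was 3.88 times higher with Ngn3 (3.67 to 4.10). The fitted log2 fold change was 1.67 (SE 0.33) over all partners, with 1.72 (SE 0.61) beside Pdx1, 1.27 (SE 0.56) beside MafA and 2.01 (SE 0.55) beside both. Only in the last did the samples with Ngn3 (15.95 to 55.3 CPM) all lie above those without (3.37 to 13.3 CPM). In order of the means, 6SA 3-factor cells (51.5 ± 5.37 CPM, n = 2) did not overlap WT 3-factor cells (29.6 ± 13.7 CPM, n = 3), the next in the order, and all other neighbours overlapped. The WT 3-factor cells held a passage 5 sample and the 6SA 3-factor cells did not. How many of all genes lacked overlap between such small groups was not counted, so these gaps are a description only. Exons of Ncald share 633 bases with 2 annotated genes, Gm28221 on the opposite strand and Gm49397 on the same strand. Whether the counting used strand is not given in the sources used here, so reads over those bases cannot be assigned with certainty.

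Hpca, the hippocalcin gene (chr4:129111570-129122036, minus strand), was detected in 12 of 17 samples with Ngn3 and in 2 of 15 without, the latter at 1 count each. Its highest values were 8.29 CPM in 6SA Ngn3 with Pdx1 replicate 1, 6.75 and 6.23 CPM in 6SA Ngn3 with MafA replicates 2 and 1, and 6.72 CPM in WT Ngn3 with Pdx1 replicate 1. The 5 samples at 0 included 3 of the 5 samples at passage 5 and lay in 5 different conditions. In 3-factor cells Hpca was low, with 0.891, 3.22 and 0 CPM in WT cultures and 0.678 and 0 CPM in 6SA cultures. Pooled over samples it held 528 counts with Ngn3 and 2 without, a ratio of 213 (58.7 to 1764). Exons of Hpca share 57 bases with Tmem54 on the opposite strand, with the same limit on assignment as for Ncald.

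Calb1, the calbindin-D28k gene (chr4:15881264-15908064, plus strand), held 88 counts in 8 of 17 samples with Ngn3 and 0 counts in all 15 samples without, so its pooled level was at least 23.7-fold higher with Ngn3 when 3 counts over the group are taken as the limit. Most of its counts lay in 6SA cells. In 6SA 3-factor cells it measured 2.85 and 1.04 CPM (42 and 12 counts), and in 6SA Ngn3 with Pdx1 it measured 1.04, 0 and 0.318 CPM (23, 0 and 2 counts). In the WT cultures only 3-factor cells held any, at 0.0810, 0.731 and 0 CPM (1, 5 and 0 counts). All 42 counts of the highest sample, 6SA 3-factor replicate 1, came from 1 of its 3 technical repeats, and without that sample the limit was 13.5-fold.

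Necab1 (chr4:14952245-15149794, minus strand) held 127 counts in 10 of 17 samples with Ngn3 and 0 in all 15 without, at least 34.2-fold higher by the same limit. Of these, 71 counts (7.37 CPM) lay in 6SA Ngn3 with MafA replicate 2, and all 71 came from 1 of its 2 technical repeats. Without that sample 56 counts were left and the limit was 15.95-fold. The next highest sample was 6SA 3-factor replicate 2, at 2.69 CPM (31 counts), and each of the others held at most 6 counts. Exons of Necab1 share 410 bases with Gm11837 on the opposite strand, with the same limit on assignment as for Ncald.

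Necab2 (chr8:119446719-119472640, plus strand) was also found without Ngn3, in 7 of 15 samples at up to 0.289 CPM, and in 12 of 17 samples with it. It held 88 counts with Ngn3 and 15 without, a pooled ratio of 4.73 (2.72 to 8.82), and 50 of the 88 lay in 6SA 3-factor replicate 2 (4.34 CPM), without which the ratio was 2.19 (1.18 to 4.29). WT Ngn3 with Pdx1 replicate 2 (1.35 CPM, 4 counts) and WT Ngn3 with MafA replicate 2 (1.304 CPM, 10 counts) were next. Its fitted log2 fold change of 1.84 (SE 0.85) went to 0.07 when replicate 2 was left out of every condition, to 4.17 when replicate 1 was, and to 1.01 without WT Ngn3 with Pdx1 replicate 2.

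Calb2, the calretinin gene (chr8:110137502-110168210, minus strand), was not detected in any of the 17 samples with Ngn3. Without Ngn3 it held 1 count, in 6SA Pdx1 replicate 1 (0.0560 CPM). At 3 counts, which is 0.136 to 1.01 CPM in these samples, this is the limit of what the depth could show.

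**Figure D2:**
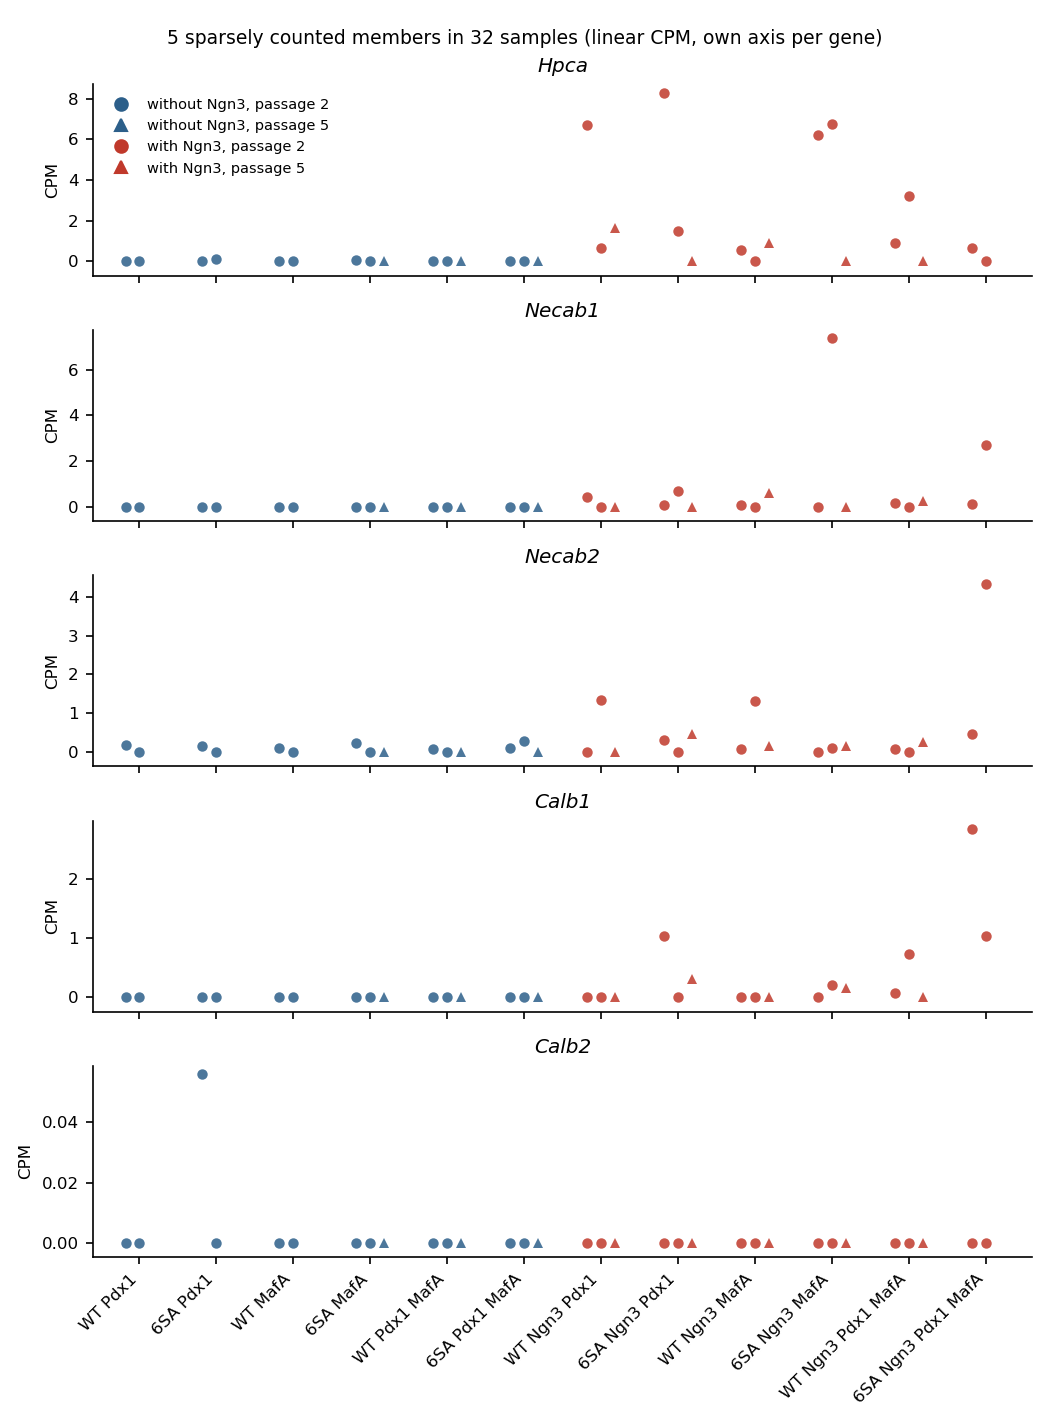
Hpca, Necab1, Necab2, Calb1 and Calb2 in the 12 conditions (x axis) in CPM on a linear y axis of its own for each gene, with 1 point per sample (circles passage 2, triangles passage 5). Single samples carry most of the signal, such as 7.37 CPM of Necab1 in 1 of the 6SA Ngn3 with MafA samples, and Calb2 stays at or below 0.0560 CPM.

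Technical repeats gave the same picture at the level of single libraries. Scgn, Efcab1 and Ncald were counted in 29 of 29 kept libraries with Ngn3. Within the 8 samples that had repeats, the highest repeat exceeded the lowest by 1.13 to 3.56 times for Scgn (median 1.29), 1.04 to 2.49 times for Efcab1 (median 1.57) and 1.05 to 3.13 times for Ncald (median 1.496). Hpca was counted in 20 of the 29 libraries, Necab2 in 14, Necab1 in 11 and Calb1 in 10. Detection of these 4 genes thus varied between repeats of 1 sample, whereas that of the 3 abundant members did not.

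Whether the phospho-mutant form of Ngn3 gave other levels than the wild-type form was asked over the 3 Ngn3 combinations, 8 samples of 6SA against 9 of WT cultures. Of the 24004 genes, 0% were called by edgeR at an adjusted p under 0.05 (1422 genes at an unadjusted p under 0.05, and 26 genes called by DESeq2), and 0 of the 7 members were called by edgeR or DESeq2, with 1 member, Calb1, at an unadjusted p under 0.05. Scgn measured 29.5 to 662 CPM in 6SA cells (median 268) and 35.9 to 934 CPM in WT cells (median 191), a log2 fold change of 0.20 (SE 0.50, edgeR adjusted p = 1). The approximate 95% interval of this difference, -0.77 to 1.17, is wide, so equal levels are not shown. Efcab1 differed by 0.51 (SE 0.45, interval -0.39 to 1.40, edgeR adjusted p = 0.993).

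Ncald had the largest such difference among the abundant members, 7.94 to 110.5 CPM in 6SA cells (median 39.1) against 5.29 to 43.4 CPM in WT cells (median 23.1), with a log2 fold change of 0.78 (SE 0.43, interval -0.07 to 1.63, edgeR adjusted p = 0.876). Calb1 held 82 counts in 6 of 8 samples with 6SA Ngn3 and 6 counts in 2 of 9 with WT Ngn3. Its fitted log2 fold change was 3.79 (SE 1.23, edgeR unadjusted p = 0.00805, adjusted p = 0.78). Samples of both forms overlapped for every member.

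The effect of Ngn3 in 6SA cultures minus that in WT cultures was 0.54 (SE 0.95) for Scgn, -0.83 (SE 0.87) for Efcab1 and 0.95 (SE 0.64) for Ncald on the log2 scale, each with an edgeR adjusted p of 1. Of all genes 0% were called (647 at an unadjusted p under 0.05, and 5 by DESeq2), and 0 of 7 members were called by either tool, with 0 at an unadjusted p under 0.05. Calb1, Necab1 and Hpca had no usable test there, since whole conditions were at 0.

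Adding MafA or Pdx1 to Ngn3 and its other partner was compared next, and these comparisons share the 5 samples of 3-factor cells. When Pdx1 was added to Ngn3 and MafA, Scgn measured 155 to 934 CPM in 3-factor cells against 29.5 to 287 CPM in the 6 samples of Ngn3 with MafA. The log2 fold change was 1.80 (SE 0.62, interval 0.57 to 3.02), with an edgeR adjusted p of 0.112. Efcab1 measured 30.6 to 111 CPM against 5.50 to 42.1 CPM, a difference of 1.91 (SE 0.57, interval 0.78 to 3.03, edgeR adjusted p = 0.0689). For Efcab1 the groups overlapped only through the passage 5 sample of the 3-factor cells, and for Scgn also through 6SA 3-factor replicate 2 (274 CPM), which lay below the highest sample of Ngn3 with MafA.

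In this comparison 2.72% of all genes were called, and 0 of the 7 members were called by edgeR, with 3 (Scgn, Efcab1 and Calb1) at an unadjusted p under 0.05 and 1, Efcab1, called by DESeq2 (adjusted p = 0.0235). Whether Scgn and Efcab1 were called depended on the setting. Without a gene filter the edgeR adjusted p was 9.67e-06 for Scgn and 0.00197 for Efcab1. With only the first technical repeat it was 0.135 and 0.0793. Without WT 3-factor replicate 3, edgeR called both (adjusted p = 0.0489 and 0.033). A fit blocked on replicate number also called both (0.0179 and 0.00442), and in each of the 5 pairs of samples with the same number and culture the 3-factor sample held more of both genes. The labels do not say that a number marks a shared culture. Among passage 2 samples alone the differences were 1.54 for Scgn (edgeR adjusted p = 0.129) and 1.67 for Efcab1 (0.0862). Neurog3, vector and own gene together, measured 14.6 to 329 CPM in 3-factor cells and 24.9 to 212 CPM in Ngn3 with MafA. This was a difference of 1.04 (SE 0.63, edgeR adjusted p = 0.385), and the part of Neurog3 in the difference of Scgn and Efcab1 was not tested. Calb1 differed by 4.19 (SE 1.495, edgeR adjusted p = 0.147) and Ncald by 0.61 (SE 0.54, edgeR adjusted p = 0.597).

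When MafA was added to Ngn3 and Pdx1, Scgn measured 155 to 934 CPM against 35.9 to 611 CPM (log2 fold change 0.82, SE 0.62, interval -0.39 to 2.03, edgeR adjusted p = 0.577) and Efcab1 30.6 to 111 CPM against 7.38 to 92.6 CPM (0.91, SE 0.57, interval -0.20 to 2.02, edgeR adjusted p = 0.469). Here 1.88% of all genes were called and 0 of 7 members by edgeR or DESeq2, with 1, Calb1, at an unadjusted p under 0.05. Hpca measured 0 to 3.22 CPM in 3-factor cells against 0 to 8.29 CPM in Ngn3 with Pdx1, a difference of -2.19 (SE 1.41, edgeR adjusted p = 0.493). Ncald differed by 0.09 (SE 0.54). Neurog3 measured 14.6 to 329 CPM against 7.87 to 226 CPM, a difference of 1.48 (SE 0.63, edgeR adjusted p = 0.252). The part of Neurog3 in these differences was not tested.

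Ngn3 with Pdx1 against Ngn3 with MafA gave 0.97 (SE 0.59, interval -0.19 to 2.13, edgeR adjusted p = 0.719) for Scgn and 1.00 (SE 0.54, interval -0.07 to 2.06, edgeR adjusted p = 0.663) for Efcab1, 6 samples each. In this comparison 0.133% of all genes were called and 0 of 7 members by edgeR or DESeq2, with 0 at an unadjusted p under 0.05. Calb1 had no usable test in it.

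**Figure D3:**
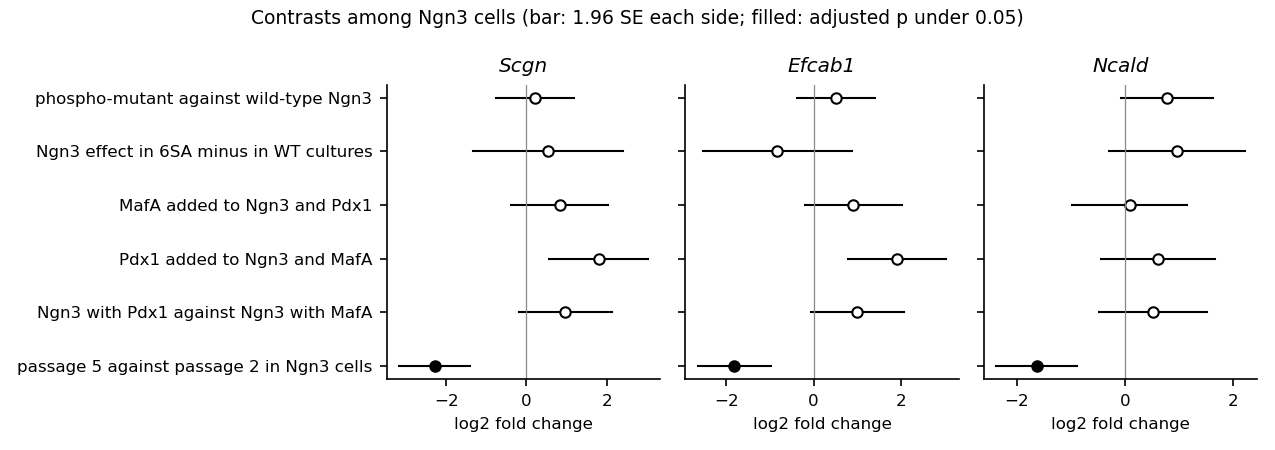
Log2 fold changes of Scgn, Efcab1 and Ncald (x axis) in the contrasts among samples with Ngn3 (y axis), with bars for the approximate 95% interval and filled points where the edgeR adjusted p is under 0.05. Filled points appear only for passage 5 against passage 2, at -2.28, -1.82 and -1.64.

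Without Ngn3, Pdx1, MafA and their combination were also compared, as were 6SA and WT cultures. In each of these 4 comparisons 0% of all genes were called by edgeR (531 to 689 at an unadjusted p under 0.05, and 8 to 27 by DESeq2), and 0 of 7 members were called by edgeR or DESeq2, with 0 at an unadjusted p under 0.05. Of the 7 members, 3 or 4 had no usable test there because they were at or close to 0. Ncald was the only member with counts in every such sample, and it differed between cultures by -0.17 (SE 0.47), at 2.90 to 15.6 CPM in 6SA and 3.37 to 17.4 CPM in WT cultures.

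Among samples with Ngn3, the organoids at passage 5 gave lower levels of the 3 abundant members than those at passage 2. Scgn measured 29.5 to 155 CPM in 5 samples at passage 5 (median 53.4) and 145 to 934 CPM in 12 samples at passage 2 (median 281). It fell by 2.28 on the log2 scale (SE 0.45, edgeR adjusted p = 0.0048). Efcab1 measured 5.50 to 30.6 CPM against 12.4 to 111 CPM and fell by 1.82 (SE 0.42, edgeR adjusted p = 0.0163). Ncald measured 5.29 to 30.5 CPM against 18.2 to 110.5 CPM and fell by 1.64 (SE 0.38, edgeR adjusted p = 0.0138). For each of the 3 genes the ranges of the passages overlapped. All 5 samples at passage 5 carried replicate number 3, and the model had no term for a culture shared between colours. The p-values for passage, here and below, can therefore not be taken to measure the spread between separate passage 5 cultures.

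These were 3 of 7 members called, all lower, where 2.59% of all genes were called lower and 4.4% in either direction (435 higher and 622 lower, or 314 and 775 with another scaling by RLE size factors). Of the remaining members, Hpca had the largest difference, at 0 to 1.64 CPM against 0 to 8.29 CPM (-2.65, SE 1.61, edgeR adjusted p = 0.351). The median over all genes was -0.21. Scgn stayed called whichever sample or replicate number was left out (edgeR adjusted p between 0.000113 and 0.0345). Efcab1 lost its call without the passage 5 sample of 6SA Ngn3 with MafA (0.0823), WT Ngn3 with Pdx1 (0.0751) or 6SA Ngn3 with Pdx1 (0.0502), and Ncald without that of 6SA Ngn3 with MafA (0.0739) or WT Ngn3 with MafA (0.061). Without replicate 1 of every condition both lost it (0.0615 and 0.141), which left 1 call.

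The drop could be followed condition by condition. In the 5 Ngn3 conditions with a kept passage 5 sample, replicate 3 had the lowest Scgn and the lowest Efcab1 of its condition in 5 of 5, and of the genes tested 3.6% did so. For Ncald and Neurog3 this held in 4 of 5. Scgn at passage 5 was 0.104 to 0.354 of the mean at passage 2 (median 0.204), Efcab1 0.169 to 0.490 (median 0.301), Ncald 0.166 to 0.441 (median 0.437) and Neurog3 0.0806 to 0.297 (median 0.246). The library of 6SA 3-factor replicate 3, left out for its depth, was also at passage 5. It held Scgn at 301 CPM of the plain total (123 counts) and Efcab1 at 36.7 CPM (15 counts). Both lay above the highest kept passage 5 samples (155 and 30.6 CPM), whereas Ncald lay within their range. With all libraries, the passage differences were -1.95 for Scgn, -1.67 for Efcab1 and -1.75 for Ncald.

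Other measures moved with passage as well. Neurog3 fell by 2.38 (SE 0.43, edgeR adjusted p = 0.00263), from 34.9 to 329 CPM at passage 2 to 7.87 to 38.8 CPM at passage 5. Of the 10 endocrine genes 7 fell and 0 rose, with a median difference over the list of -2.21, and their summed level was 544 to 1465 CPM at passage 5 and 1927 to 13820 CPM at passage 2. The part of Neurog3, of the endocrine genes as a whole and of the replicate in the lower Scgn, Efcab1 and Ncald was not tested. Without Ngn3, where 3 samples at passage 5 were set against 12 at passage 2, 0.00417% of all genes were called (1 gene, with 2565 at an unadjusted p under 0.05 and 345 called by DESeq2). Of the 7 members 0 were called there by edgeR or DESeq2, with 1, Ncald, at an unadjusted p under 0.05. It measured 2.90 to 7.29 CPM at passage 5 and 6.48 to 17.4 CPM at passage 2 (-1.51, SE 0.50, edgeR adjusted p = 0.384), and whether this differs from the fall in cells with Ngn3 was not tested.

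**Figure D4:**
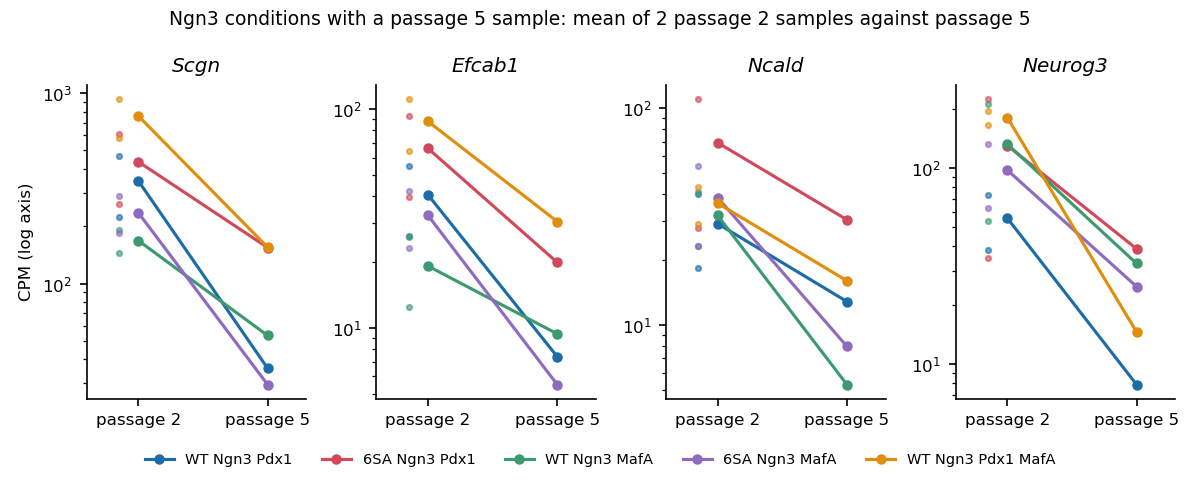
Scgn, Efcab1, Ncald and Neurog3 in the 5 Ngn3 conditions with a kept passage 5 sample, as CPM on a log y axis, with the mean of the 2 passage 2 samples on the left, those samples as small points beside it, and the single passage 5 sample on the right. Every line slopes down, Scgn to 0.104 to 0.354 of its passage 2 mean.

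The other EF-hand genes were taken as a list of 78 without the 8 members, of which 71 passed the filter on low counts. With Ngn3, averaged over partners and cultures, 20 were higher and 11 lower by edgeR, where 11.1% of all genes were called higher and 10.5% lower. The median log2 fold change over the 71 was 0.30 and that over all genes tested was 0.07, and 9 of the 71 had no usable test because they were at 0 in whole conditions. The count of calls dropped to 17 without replicate 1 and to 11 without replicate 2 of every condition. The 7 S100 genes called were all lower, and the 8 neuronal calcium sensors and CaBP relatives called were all higher.

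Of 10 neuronal calcium sensors tested, the relatives of Hpca and Ncald, 4 rose and 0 fell. Kcnip3, which encodes the calcium sensor calsenilin (DREAM), was the gene of the list with the lowest adjusted p. It lay at 0.458 to 111 CPM with Ngn3 (median 26.9) and at 0 to 0.0901 CPM without, with no overlap. With 8087 counts against 2, its pooled ratio was 3263 (903 to 26950), and edgeR gave an adjusted p of 1.49e-07. Kcnip1, a subunit of A-type potassium channels, lay at 0 to 15.2 CPM against 0 to 0.807 CPM (log2 fold change 5.89, SE 0.99, edgeR adjusted p = 8.52e-05). Kcnip3 also fell from passage 2 to passage 5 among samples with Ngn3, by 3.61 (SE 0.70, edgeR adjusted p = 0.00645).

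Of 6 CaBP and NECAB relatives tested, 4 rose and 0 fell. Cabp2, a modulator of calcium channels, held 772 counts with Ngn3 and 0 without, at least 208-fold higher, but its edgeR adjusted p went from 0.000447 to 1 without 6SA Ngn3 with MafA replicate 1 or WT Ngn3 with Pdx1 replicate 1, which left a condition at 0. Of 7 genes for calcineurin B, CHP and CIB proteins, 3 rose and 1 fell. Tescalcin (Tesc) lay at 3.06 to 270 CPM with Ngn3 and 0.180 to 11.56 CPM without (3.76, SE 0.59, edgeR adjusted p = 2.22e-05). Cib2 lay at 1.05 to 88.2 CPM against 0.120 to 5.06 CPM (2.70, SE 0.48), and Cib3 rose by 5.48 (SE 1.06). Chp1 lay at 87.5 to 237 CPM against 127 to 433 CPM and fell by 0.81 (SE 0.16). Cib3 and Chp1 lost their calls without replicate 1 of every condition (edgeR adjusted p = 0.0589 and 0.0773).

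Among the S100 genes, whose small proteins are common in epithelia, 7 of 12 fell and 0 rose, with a median of -1.31. S100a14 lay at 0.242 to 11.5 CPM with Ngn3 and 8.53 to 23.2 CPM without and fell by 2.42 (SE 0.37, edgeR adjusted p = 1.73e-05). S100a9 held 2 counts with Ngn3 and 290 without, a ratio of 0.00557 (0.000671 to 0.0203). S100a16 (-1.34, SE 0.24), S100a10 (-1.58, SE 0.39), S100a11 (-1.28, SE 0.33), S100a6 (-1.21, SE 0.37) and S100b (-2.49, SE 0.82) fell too. Without replicate 2 of every condition only S100a14 of the 7 kept its call, with edgeR adjusted p between 0.0533 and 0.399 for the others. Among single samples, S100a6 lost its call without 6SA Pdx1 replicate 2 (edgeR adjusted p = 0.0532). S100b lost it without any of 6SA MafA replicate 2, 6SA 3-factor replicate 2, 6SA Pdx1 replicate 2, WT MafA replicate 1 and WT Pdx1 replicate 1 (adjusted p between 0.0553 and 1). The summed duct genes were lower by median with Ngn3 in the same samples (4026 against 18807 CPM), with ranges that overlapped, as given above. Their part in the lower S100 levels was not tested.

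The remaining subgroups held calls in both directions. In the endoplasmic reticulum 3 of 9 rose, among them the reticulocalbins Rcn1 (17.4 to 137 CPM against 4.78 to 46.9 CPM, 1.52, SE 0.28) and Rcn3 (3.15, SE 0.71). Of 12 EF-hand domain proteins 2 rose, Efhd2 (1.39, SE 0.26) and Efcab10 (4.22, SE 0.93), and 1 fell. Efcab10 had no usable test without WT Ngn3 with MafA replicate 1 (edgeR adjusted p = 1), and without replicate 2 of every condition Rcn1 lost its call (0.0578). Calmodulin genes rose in 2 of 4 cases, penta-EF-hand genes in 1 of 5 with 2 falls, Sri (-0.52, SE 0.14) and Pdcd6 (-0.76, SE 0.21), and mitochondrial genes in 1 of 4. Sri and Pdcd6 lost their calls without replicate 2 of every condition (edgeR adjusted p = 0.272 and 0.367), and Sri also without replicate 3 (0.0524). Parvalbumin (Pvalb), a small calcium buffer like the calbindins, held 407 counts with Ngn3 and 0 without, at least 109-fold higher, but had no usable test in this fit. It was counted in 4 of 17 samples, and 332 of the 407 counts lay in 6SA 3-factor replicate 1, without which the limit was 22.1-fold.

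**Figure D5:**
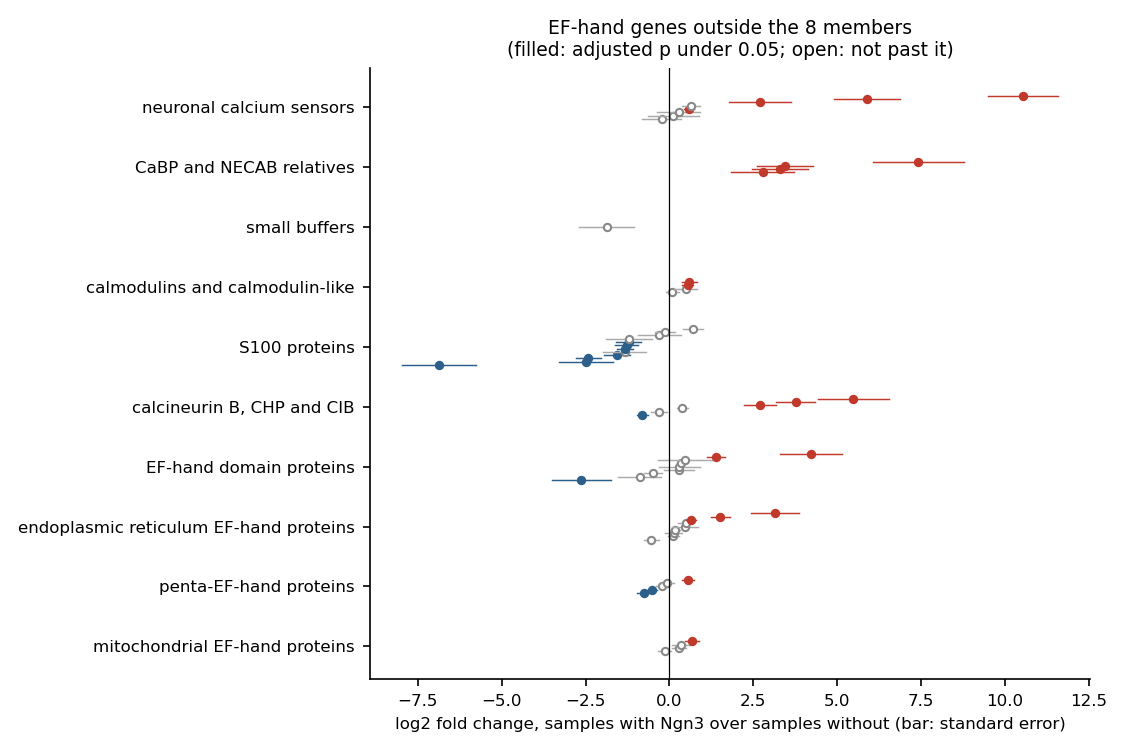
Log2 fold change with Ngn3 over without (x axis) for the EF-hand genes outside the 8 members, by subgroup (y axis), with bars of 1 standard error, filled points at an edgeR adjusted p under 0.05, and genes without a usable test not drawn. Kcnip3 stands farthest right, and the 7 filled S100 points all lie left of 0.

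Beside both partners 21 of the 71 rose and 9 fell (9.42% and 8.4% of all genes), which became 19 calls in all without 6SA 3-factor replicate 1. Beside Pdx1 alone 2 rose and 2 fell (1.32% and 0.171%), and beside MafA alone 2 rose and 2 fell (2.5% and 2.17%). The 4 calls beside Pdx1 became 0 to 2 without any of WT Ngn3 with Pdx1 replicate 1 or 2, 6SA Ngn3 with Pdx1 replicate 2 or 3, WT Pdx1 replicate 1 or 2, or 6SA Pdx1 replicate 1 or 2. Those beside MafA became 2 without any of 6SA Ngn3 with MafA replicate 2, WT Ngn3 with MafA replicate 2, or WT MafA replicate 1 or 2. Among samples with Ngn3, 7 of the 71 rose and 2 fell when Pdx1 was added to Ngn3 and MafA (1.17% and 1.56% of all genes), led by Calm3 (1.55, SE 0.27, edgeR adjusted p = 0.0032), Gca (-1.88, SE 0.35, adjusted p = 0.00399) and Calu (-1.94, SE 0.42, adjusted p = 0.0117). When MafA was added to Ngn3 and Pdx1, Calm3 (1.17, SE 0.27, edgeR adjusted p = 0.0206) and Cib2 (3.26, SE 0.77, adjusted p = 0.021) rose (0.525% of all genes rose).

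Since Efcab1 is known from cilia, 19 genes of motile cilia were also looked at, all of which passed the filter. With Ngn3, 4 rose and 3 fell by edgeR, against 11.1% and 10.5% of all genes, with a median of 1.26, and 5 had no usable test. Dnah9, an axonemal dynein heavy chain, lay at 0.306 to 48.2 CPM with Ngn3 and 0 to 0.811 CPM without (7.03, SE 0.70, edgeR adjusted p = 7.6e-08). Foxj1, the transcription factor of motile ciliated cells, lay at 0 to 6.79 CPM with Ngn3 and 2.11 to 41.9 CPM without and fell by 3.32 (SE 0.54, edgeR adjusted p = 3.34e-05). Dnaic1 (3.87, SE 0.90), Dnah11 (2.67, SE 0.81) and Rsph1 (1.43, SE 0.44) rose as well, and Pifo (-2.91, SE 0.81) and Ccdc114 (-0.93, SE 0.27) fell. Dnaic1 and Dnah11 had no usable test without WT Ngn3 with Pdx1 replicate 1 (edgeR adjusted p = 1 for both), and Pifo lost its call without WT MafA replicate 2 (0.0633). Without replicate 2 of every condition Rsph1 (0.243), Ccdc114 (0.0993), Pifo (0.293), Dnaic1 (0.1003) and Dnah11 (0.104) were not called, nor were Ccdc114 without replicate 1 (0.257) and Pifo without replicate 3 (0.0917). Efcab1 is not in this list and was chosen for being high with Ngn3, so its direction beside these genes is a description only. Within the list, Dnah9 was higher and Foxj1 lower in the same samples.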

How the data were processed

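The authors sequenced Smart-seq2-type libraries of 50 sorted cells as single-end reads, aligned them with GSNAP to mm10 and counted reads per Ensembl gene with HTSeq 0.5.3p3. The deposited values are these raw counts, with technical repeats as separate columns. Whether counting used strand is not given in the sources used here.

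Of 61 libraries, 58 with over 1000000 counts on genes were kept, and technical repeats were summed to 32 samples. Replicates were separate organoid cultures only as far as the labels say, so p-values measure the spread between these samples. Symbols, coordinates and exon lengths came from GENCODE on GRCm38, and 45143 of 46078 identifiers had a symbol. Spike-ins (92) and HTSeq summary lines stayed out of library sizes. Reads without a feature were 6.42 to 27.8% and ambiguous reads 3.44 to 14.2% per library. The tests covered genes with a count in at least 5 kept libraries and a variance of log2(CPM + 1) over 0.001. This filter was applied to the libraries before repeats were summed. CPM used TMM-scaled totals. Counts were tested by the quasi-likelihood test of edgeR 4.0.16 (R 4.3.3) in 1 model of 12 conditions, with Benjamini-Hochberg adjustment over all 24004 genes. Passage had a separate model with passage terms in cells with and without Ngn3. DESeq2 1.42.0 was an alternative. Approximate 95% intervals come from the standard errors by the normal distribution. Intervals of pooled ratios are exact binomial ones and, like limits from 3 counts, cover counting error only, since reads carried no molecular identifiers.

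The members and gene lists were chosen with earlier results of these data known. Of the EF-hand and motile cilia lists, genes called in the averaged Ngn3 effect were named if among the 10 higher or 10 lower with the lowest adjusted p, and EF-hand genes called in other contrasts if among the 3 lowest. The 5 genes most correlated with Scgn and with Efcab1 over the 12 condition means, and Neurog3, Pdx1 and Mafa, were also named. Pvalb was chosen after its values were seen. The fits were tested on simulated data. Alternatives were other normalization, filters, technical repeats, samples left out and a replicate block. Pooled ratios without the sample holding most counts were added after seeing the data.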

Additional observations from a re-analysis of the deposited data

Results flagged for a closer look

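The 3 libraries of 3-factor cells left out of every comparison for under 1000000 counts on genes also held the abundant members. Scgn and Efcab1 lay above their level in samples without Ngn3 in each of them, and Ncald in all but 6SA 3-factor replicate 3. Scgn measured 530 CPM of the plain total in the second technical repeat of 6SA 3-factor replicate 2 (128 counts), 301 CPM in the library of 6SA 3-factor replicate 3 (123 counts) and 566 CPM in the first technical repeat of WT 3-factor replicate 2 (354 counts). Efcab1 measured 66.2, 36.7 and 57.5 CPM in these libraries, from 16, 15 and 36 counts. Ncald measured 53.8 CPM in the repeat of 6SA 3-factor replicate 2 (13 counts) and 48.0 CPM in that of WT 3-factor replicate 2 (30 counts), and 7.34 CPM in 6SA 3-factor replicate 3, which lay within the range of samples without Ngn3. These libraries held 241563, 408733 and 625650 counts on genes. The library of 6SA 3-factor replicate 3 is the only one of its sample and comes from passage 5. Because it was left out for its depth, that sample does not enter the passage comparison.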

How the results depend on the processing

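None of the called members reversed its direction, nor did the called EF-hand and motile cilia genes named for the averaged Ngn3 effect. Directions of other called genes were not compared. Among members not called at passage 5, Necab1 (-0.57) ranged up to 0.40, Calb1 (-0.88) up to 0.14 and Necab2 (0.29) down to -0.33 on the log2 scale when samples were left out. The EF-hand genes called in the averaged Ngn3 effect numbered 31, and 11 to 33 when samples or replicate numbers were left out. Beside both partners there were 30 (range 3 to 30, with 17 without replicate 1 and 3 without replicate 2). Beside Pdx1 the 4 calls became 7 with DESeq2, 1 with only the first technical repeat, 10 without a gene filter and 1 with only the conditions compared (range 0 to 4 with samples left out). Beside MafA the 4 calls became 9 with DESeq2 and 14 without a gene filter (range 0 to 5). When Pdx1 was added to Ngn3 and MafA, the 0 members called became 1 with DESeq2, 2 without a gene filter (adjusted p = 9.67e-06 for Scgn and 0.00197 for Efcab1) and 2 without edgeR's legacy setting, an alternative chosen after seeing the data (range 0 to 2). The 3 members called lower at passage 5 became 1 to 3. The cause of these shifts was not tested, other than that leaving samples out lowers the number of samples. Over all genes the passage calls numbered 1057, and 3032 with DESeq2 (881 higher and 2151 lower), 2368 without a gene filter, 1738 with all libraries and 1922 without the legacy setting. The 5057 genes at 0 in conditions of both kinds had no usable test in the averaged Ngn3 effect. With 1 Ngn3 term, also chosen after seeing the data, 24 EF-hand genes were higher and 11 lower, Pvalb among the added calls. Members with few counts (Calb1, Necab1, Necab2 and Hpca) are limited by depth.

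The labels tie replicate 3 to passage 5 but do not say that a number marks a shared culture. Of 14 pairs of a condition with and without Ngn3, 12 had a correlation of deviations over 0.1 (lowest -0.423, median 0.349), as did 61 of 72 pairs within a culture type (median 0.426), so most but not all samples with the same number deviated together and a pairing was not taken as given. With that number as a replicate block, 8 EF-hand genes were called beside Pdx1, 12 beside MafA and 2 members (Scgn, adjusted p = 0.0179, and Efcab1, 0.00442) when Pdx1 was added, and the calls over all genes went from 2658 higher and 2510 lower to 6620 in all for the averaged Ngn3 effect and from 654 to 2038 when Pdx1 was added. The block was not used in the passage model, where number and passage cannot be told apart.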
